A study of Rattus norvegicus with 38 samples.

Results

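The motor cortex peak list held 750 very broad H3K27ac domains among its 79517 peaks on chromosomes 1 to 20. They were chosen by width alone, as peaks of 10 kb or more, so their width is a description and not a result. H3K27ac ChIP-seq was performed on the motor cortex and SN of 9 male Lewis rats aged 8 to 10 months, of which 5 received rotenone, a mitochondrial complex I inhibitor, at 2.8 mg/kg i.p. daily for 21 days, and 4 received vehicle. The sources name the vehicle differently (PBS, Miglyol, or DMSO in Miglyol), and the labels call the tissues cortex and ventral midbrain. Both regions came from the same rats, dissected 24 h after the last injection, and the 4 input runs carry only the cortex label. The methods also describe dosing until a behavioural endpoint. The authors called peaks on reads combined over all rats of a region, rotenone and vehicle together, which gave a single list per region with positions only. The lists therefore give no value per rat, no error between rats and no depth per sample, and rotenone was not set against vehicle here. Every comparison of motor cortex with SN below is between 2 pooled lists and carries no test.

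H3K27ac is the acetylation of lysine 27 on histone H3, a mark of active promoters and enhancers. Most peaks cover a single promoter or enhancer, while some genes carry a continuous stretch of the mark over many neighbouring elements. Such broad stretches are known for lying at transcription factors, microRNAs and other genes that distinguish a cell type. The domains here were chosen by the width of a single called peak, and the strength of the mark was not used. Both tissues here are mixtures of neurons and glia, so a domain in fewer cells and a domain with less acetylation per cell cannot be told apart.

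Names of domains came from the annotation in the study's tables, where a row had the same interval, and give the nearest gene, which need not be the gene that a domain acts on. A row was found for 127 of the 750 domains (16.9%), against 11.5% of all motor cortex peaks on these chromosomes. This share was not particular to the domains, since 16.5% of the peaks of 2 to 5 kb and 19.1% of those of 5 to 10 kb had a row. The tables list peaks that the authors selected by comparing rotenone with vehicle, so the named domains are a subset chosen on the same rats, and neither the direction nor the size of that comparison is used. The names cover 117 different genes, and 125 of the 127 named domains carry a symbol found in RefSeq. The name is at times not that of the gene around the domain: the Gmpr domain lies in an intron of Atxn1 and the St3gal3 domain in an exon of Kdm4a. Since the lists carry no gene names of their own, the tissue labels were not checked against marker genes here. Named domains had about the same width as the others, with medians of 12919 and 12959 bp. The median share of their bases under SN peaks was also close (86.5% and 87.6%). Domains with little or no SN peak were more frequent among the named ones. No SN peak touched 22 of the 127 (17.3%), against 73 of all 750 (9.73%). Less than 20% of the bases lay under SN peaks in 39 of the 127, against 149 of all 750.

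Of the widest named domains, a pair lay at microRNA genes, whose mature products are short enough to be shown whole. Mir9-1 and Mir9-2 encode the same mature sequences of miR-9, a microRNA of neural progenitors and neurons, and both of their domains were largely shared with the SN. The Mir125b1 domain, of 12633 bp, lay to 93.3% under 2 SN peaks, and its gene is shown with the only mature product in the RefSeq table. Capitals mark the seed, bases 2 to 8, which pairs with target transcripts.
rno-miR-9a-5p: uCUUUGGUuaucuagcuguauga
rno-miR-9a-3p: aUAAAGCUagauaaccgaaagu
rno-miR-125b-1-3p: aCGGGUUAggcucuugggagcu

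Promoter sequence is shown for 4 named domains annotated at a promoter, a pair with little or no SN peak (Bcl11a, Npas4) and a pair lying almost wholly under 1 SN peak (Git1, Sdc4). Each is the 250 bases before the transcription start in RefSeq (GRCr8), 5′ to 3′ on the strand of the gene, with each CG dinucleotide in capitals. The peak lists use mRatBN7.2, so whether each stretch lies inside its domain could not be read from coordinates.
Bcl11a: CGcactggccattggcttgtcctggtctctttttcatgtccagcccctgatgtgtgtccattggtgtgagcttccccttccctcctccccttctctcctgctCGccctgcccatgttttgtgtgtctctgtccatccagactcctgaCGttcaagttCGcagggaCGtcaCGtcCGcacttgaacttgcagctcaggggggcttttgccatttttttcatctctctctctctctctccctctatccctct
Npas4: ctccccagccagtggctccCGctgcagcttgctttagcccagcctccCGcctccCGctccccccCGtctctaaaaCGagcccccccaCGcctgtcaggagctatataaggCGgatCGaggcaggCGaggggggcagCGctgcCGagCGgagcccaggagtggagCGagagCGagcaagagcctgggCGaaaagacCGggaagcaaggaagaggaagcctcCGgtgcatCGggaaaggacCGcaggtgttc
Git1: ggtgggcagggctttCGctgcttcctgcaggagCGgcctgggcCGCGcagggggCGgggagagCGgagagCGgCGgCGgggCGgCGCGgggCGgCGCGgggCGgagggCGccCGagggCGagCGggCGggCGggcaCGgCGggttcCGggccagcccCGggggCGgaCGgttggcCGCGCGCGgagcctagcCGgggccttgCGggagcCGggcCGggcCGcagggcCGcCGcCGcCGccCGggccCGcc
Sdc4: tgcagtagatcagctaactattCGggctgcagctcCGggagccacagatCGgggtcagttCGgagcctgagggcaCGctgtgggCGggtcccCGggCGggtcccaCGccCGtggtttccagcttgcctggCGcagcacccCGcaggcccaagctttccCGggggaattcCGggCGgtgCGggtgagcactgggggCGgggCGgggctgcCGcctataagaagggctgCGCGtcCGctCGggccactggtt
The Bcl11a sequence held 7 CG dinucleotides at 54.8% GC, and that of Npas4 held 19 at 66.8% GC. Git1 had 43 at 86.4% GC and Sdc4 had 23 at 70% GC. In this small choice, made after the values were seen, both shared domains had more CG dinucleotides than both of the others. No such comparison over the other promoter domains is given here, so nothing is read from it.

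The 750 domains were 0.94% of the peaks and held 7.88% of the bases, 11.4 of 144 Mb. Their median width was 12951 bp, with an interquartile range of 11074 to 16680 bp, where the median of all motor cortex peaks on these chromosomes was 1245 bp. There were 288 domains of 10 to 12 kb, 207 of 12 to 15 kb, 143 of 15 to 20 kb and 112 of 20 kb or more. Only 24 reached 30 kb and 2 reached 50 kb. No gap in width set the domains apart at the minimum: the narrowest domain had 10001 bp, and the widest peak left out had 9998 bp. The SN list held 501 peaks of this width (0.72% of its peaks on the same chromosomes), the widest of 81462 bp. That list was used whole, with its 70744 peaks, which is more than the study describes for the SN, so shares of cover here refer to the deposited list. The motor cortex list, with 80765 peaks, was close to the study's count. On chromosomes 1 to 20 all 79517 motor cortex peaks had 200 bp or more, but 68066 of the 69744 SN peaks. The lists may thus have been filtered differently, and the part of this in the cover was not tested.

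**Figure D1:**
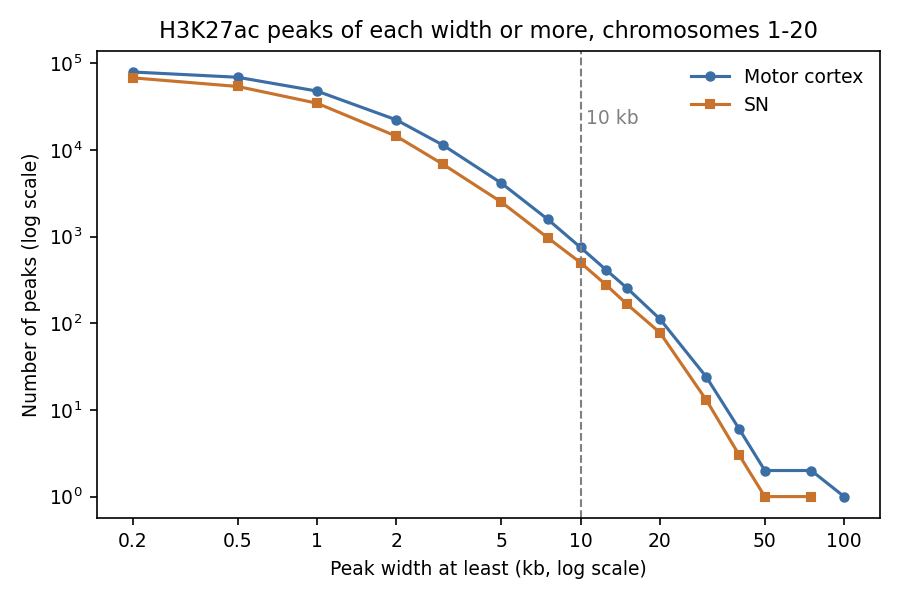
Number of H3K27ac peaks (vertical axis, log scale) of at least a given width in kb (horizontal axis, log scale) in the pooled motor cortex and SN lists, chromosomes 1 to 20. The motor cortex had more peaks at every width shown, with 750 against 501 at 10 kb (dashed line), and both curves pass the 10 kb minimum without a step.

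The widest domain was chr3:29246619-29351930 in mRatBN7.2, with 105312 bp, and 98.2% of it lay under 4 SN peaks, of which the widest, of 81462 bp, was also the widest peak of the SN list. It had no row of its own, and the nearest interval with one, annotated to Zeb2-as1, lay 80832 bp away. The second widest domain, chr3:147322088-147399669, had 77582 bp and lay 98% under 5 SN peaks, 10849 bp from an interval annotated to Ppp1r16b. The next pair had nearly the same width but differed in SN cover. One, chr19:23353134-23401215, had 48082 bp with 95.5% under SN peaks and lay 6902 bp from an interval annotated to Nfix, a nuclear factor I transcription factor. The other, chr12:32371866-32419919, had 48054 bp with 42% under 11 SN peaks, none wider than 5434 bp, the highest number of SN peaks in any domain, and lay 15664 bp from an interval annotated to Pitpnm2.
Of the remaining 6 among the 10 widest, chr12:13840003-13883780 and chr10:56374080-56411889 each lay under 1 SN peak, to 100% and 99.8% of their bases. Their nearest annotated intervals were those of Gna12 at 52620 bp and Wscd1 at 62233 bp. The domain chr1:133431221-133473551, of 42331 bp, was covered to 59.1% by 10 SN peaks and lay 10842 bp from an interval annotated to Mir9-3. The domain chr9:44924786-44964353 (39568 bp, 83.8% covered) lay 6678 bp from an interval annotated to Pantr1, a long noncoding RNA beside a POU factor gene. The domain chr3:154595413-154634850 (39438 bp, 96% covered) lay 7197 bp from one annotated to Zmynd8, a chromatin reader. Only the ninth widest, that of Mapt, had a name through its own interval. Thus 8 of the 10 widest domains were covered by SN peaks to more than 80%, and for the widest ones the names are nearby intervals and not assignments.

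SN peaks overlapped 677 of the 750 domains by at least 1 bp (90.3%), where 55% of all motor cortex peaks were overlapped. Since a wide interval can meet a peak by its extent alone, the central base of each peak was compared as well. It lay under an SN peak in 515 domains (68.7%), against 49.5% of all motor cortex peaks. By bases, 68.1% of the domains' sequence lay under SN peaks, against 52.6% of the sequence of all motor cortex peaks. An SN peak that was itself 10 kb or wider overlapped 312 domains (41.6%), while 1.16% of all motor cortex peaks met such a peak. Only 501 SN peaks had this width, and a wide interval meets one more easily. The contrast between these shares therefore follows in part from the choice of wide peaks. As a description, the widest SN peak over an overlapped domain had a median of 8924 bp, where the domains had a median of 13016 bp, and in 173 of the 750 domains the SN peak was the wider one. Since the domains were selected on their motor cortex width, a lower width in the SN follows in part from the choice, and nothing is read from these medians. The lists do not give the depth of reads behind them, but the study describes more reads for the motor cortex than for the SN, and the part of depth in the widths and the cover was not tested.

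Among the domains themselves the measures moved with width in different ways. The share overlapped by at least 1 bp was 88.9% of the 495 domains of 10 to 15 kb, 93.7% of the 143 of 15 to 20 kb and 92% of the 112 of 20 kb or more. The central base lay under an SN peak in 65.7%, 71.3% and 78.6% of them, and a broad SN peak was met by 36%, 44.1% and 63.4%. For peaks of 5 to 10 kb, just below the domains, the central base gave 65.8% of 3405 and a broad SN peak 6.37%, so at the minimum the central base showed no step. Over the 750 domains, width and the share of bases under SN peaks were nearly unrelated (Spearman's rho = 0.071, Pearson's r = 0.087, given as a description over domains, which share both lists).

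**Figure D2:**
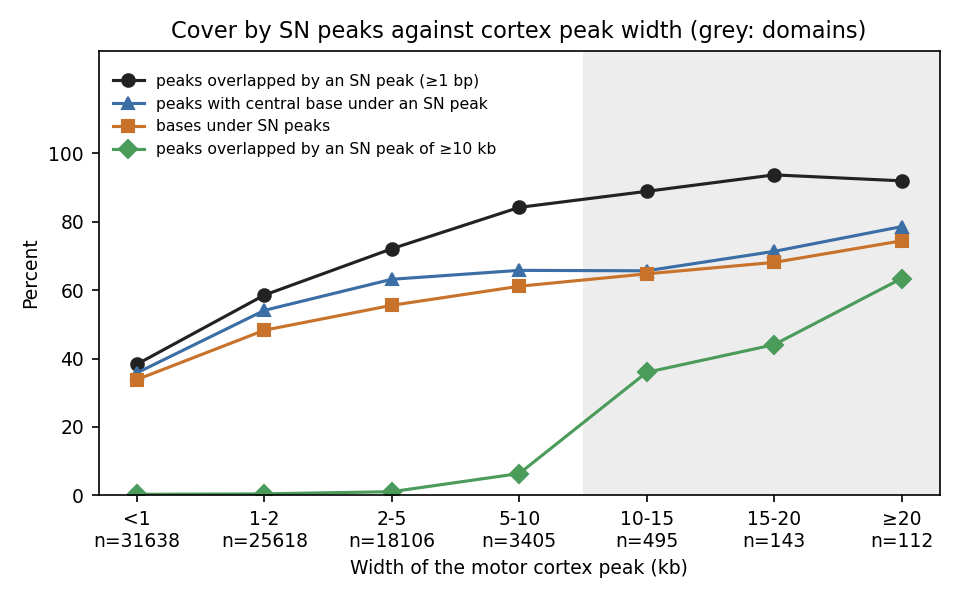
Percent (vertical axis) of motor cortex peaks overlapped by an SN peak, with the central base under one, or overlapped by an SN peak of 10 kb or more, and percent of their bases under SN peaks, against the width class of the motor cortex peak in kb (horizontal axis, number of peaks below each class). The grey area holds the 750 domains, in which the central base rises from 65.7% to 78.6% and the share meeting a broad SN peak from 36% to 63.4%.

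Most domains had either high or low cover by SN peaks. The counts below are not given for all motor cortex peaks, so none of them is read as a trait of the domains. At the upper end, 403 domains (53.7%) had 80% or more of their bases under SN peaks, 290 of them 95% or more, and 87 were covered entirely. At the lower end, 149 (19.9%) had less than 20%, and 95 less than 5%. Between these, 88 domains had 20 to under 50% and 110 had 50 to under 80%. The median domain was covered to 87.3%, with quartiles of 35.4% and 98.5%. A single SN peak covered 80% or more of 266 domains, and in a further 137 the same cover came from several SN peaks together. In 236 domains (31.5%) there were 3 or more SN peaks. Some of these lay close together, as the 6 SN peaks of the Ptn domain, which covered 93.6% of it. Others were scattered, as the 8 of the Cspg5 domain, which covered 31.1%. How many domains were of either kind was not counted.
Along the domain, cover was flat with lower edges. Of 20 equal steps, the outermost were under an SN peak in 54.4% and 55.1% of domains, and the highest share, 71.3%, was in the ninth step, just before the middle.

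**Figure D3:**
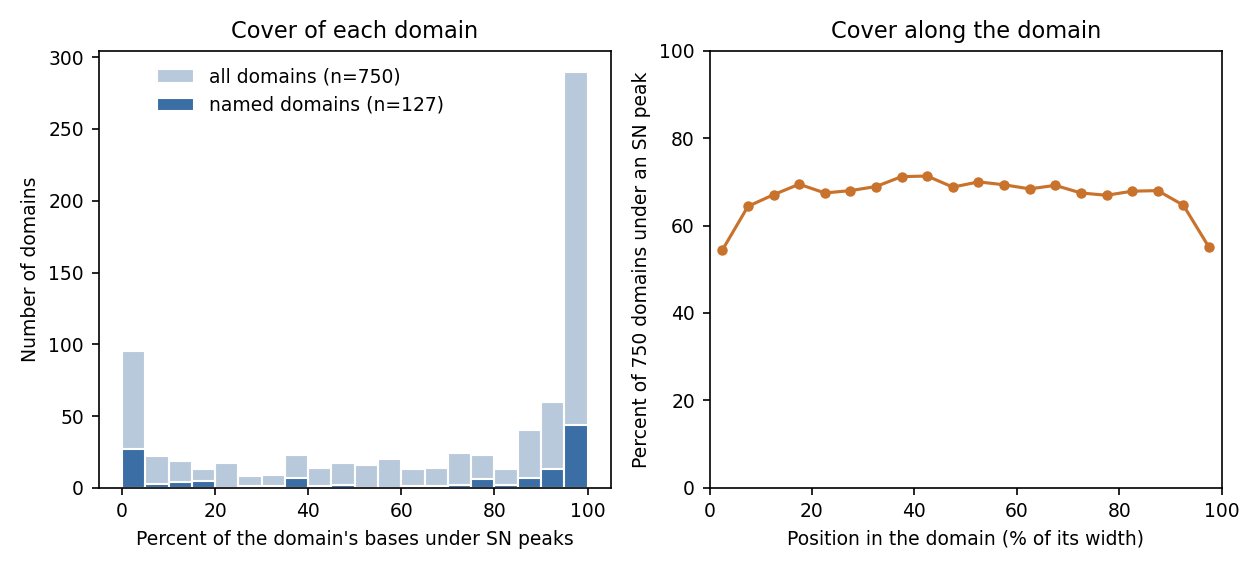
Left, number of domains (vertical axis) by the percent of their bases under SN peaks (horizontal axis, bins of 5 points), for all 750 domains and for the 127 named ones; the tallest bins are at the ends, with 290 domains at 95% or more and 95 below 5%. Right, percent of the 750 domains under an SN peak at 20 positions from one edge to the other, lowest at the edges (54.4% and 55.1%).

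Seen from the SN, 319 of its 501 broad peaks (63.7%) overlapped a motor cortex domain, and 182 did not. Nearly all of them lay over some motor cortex peak: 499 of 501 overlapped one, and 92.8% of their bases were under motor cortex peaks. The broad SN peaks outside the domains therefore lay, with at most 2 exceptions, over narrower motor cortex peaks. A wide SN peak can meet a motor cortex peak by its extent alone. The same shares over all SN peaks are not given here, so these counts are not read as a trait of the broad ones.

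No SN peak touched 73 domains (9.73%), of which 22 had a name and 51 did not. Their median width was 11895 bp, and the nearest SN peak lay at a median distance of 24259 bp, from 1218 to 486840 bp. Those named here were at transcription factor genes (Bcl11a with 2 domains, Sox5, Pknox2) and at genes of neuronal membranes and signalling (Lingo1 with 2 domains, Kcnv1, Ptpn5, Plcl1). The others named here were at Msra, Tent2, Baalc, Dear, Pdcd6ip, Cd6, Usp36, St8sia5, Gmpr, Islr and Rcvrn (2 domains). This grouping was made after the names were seen.
Bcl11a, a zinc finger repressor needed in cortical projection neurons, had the widest domains without an SN peak. They were chr14:98020070-98052866 at the promoter, with 32797 bp, and chr14:98075299-98106908 in an intron, with 31610 bp. Sox5, a factor of deep-layer cortical neurons, had a promoter domain of 16251 bp at chr4:177144312-177160562. Both Lingo1 domains, of 25663 and 15815 bp, were distal intergenic, and Lingo1 encodes a neuronal co-receptor of the Nogo receptor. Narrower ones included those of Kcnv1 (10835 bp), a modulatory subunit of voltage-gated potassium channels, Ptpn5 (10295 bp), the striatal-enriched tyrosine phosphatase STEP, and St8sia5 (10662 bp), a sialyltransferase.

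A further 17 named domains had some SN cover, but under 20% of their bases. The Npas4 promoter domain, chr1:202284603-202295125, of 10523 bp, held 1 SN peak of 285 bp (2.71% of the domain). Npas4 is a transcription factor induced by neuronal activity. The promoter domain of Arc, an activity-induced regulator of synaptic receptors, had 11511 bp with 9.76% under 2 SN peaks, the wider of 803 bp. In Dlgap1, a postsynaptic density scaffold, 13.5% of the 11519 bp promoter domain was covered, and in Shank2, another scaffold, 10.2% of a 10219 bp intronic domain. The intronic domain of Ptk2b, a calcium-dependent tyrosine kinase, was covered to 4.68% and that of Cacna1a, the pore of P/Q-type calcium channels, to 15.4%. The promoter domain of Atp2b2, a plasma membrane calcium pump, was covered to 15.6%. Add2, the beta subunit of the membrane skeleton protein adducin, had 14.6% of a distal domain covered. The other domains in this group were those of Hebp2 (3.82%), the intronic one of Zbtb16 (4.8%), Ccnh (4.8%), LOC10254977 (5.58%), Chrna1 (7.47%), Sec13 (12.7%), Nipal4 (17.8%), Srxn1 (18.8%) and Bcar3 (19.3%), so the group held synaptic genes beside genes of other functions. The decision to name the whole group was taken after the values were seen.

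The map of 18 domains sets these beside domains of intermediate and full cover. In the Slc1a2 promoter domain (23433 bp, 40.8% covered), SN peaks filled most of the first 8813 bp and left nearly all of the rest bare. Slc1a2 encodes GLT-1, the main glutamate transporter of astrocytes. The Cspg5 promoter domain (23179 bp, 31.1%) held 8 SN peaks, the widest of 3693 bp. Mir124-1, for a neuronal microRNA, had 17325 bp with 35.4% under 5 SN peaks, and Celf2, for an RNA-binding splicing factor, 17530 bp with 37.3% under 4. In these 4 domains the SN thus had separate peaks where the motor cortex had a continuous one.

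**Figure D4:**
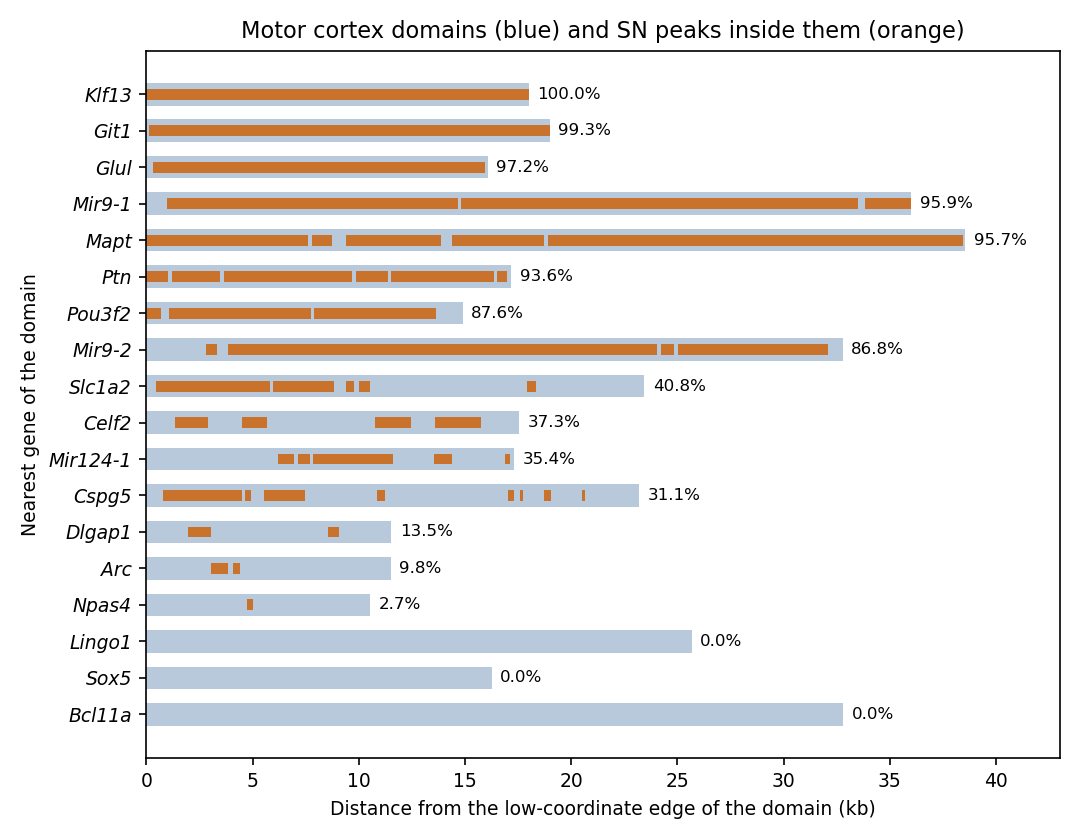
Blue bars show 18 motor cortex domains in kb from the edge with the lower coordinate (horizontal axis), each named by its nearest gene (vertical axis; the widest domain where a gene has several), and orange bars show the SN peaks inside them, with the percent of bases covered at the right. Bcl11a, Sox5 and Lingo1 have no SN peak, Slc1a2, Celf2, Mir124-1 and Cspg5 hold several short ones, and Klf13 and Git1 are covered almost from edge to edge. The domains were picked for display after their values were seen.

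At the other end, 66 of the 127 named domains had 80% or more of their bases under SN peaks, and 41 had this cover from 1 SN peak. The 13 covered entirely were at Cahm (2 domains), Klf13, Slain1, Sec11c, Plpp3, Slc6a6, Rnf144a, Pim3, Dtnbp1, Dnm2, P2ry6 and Kif3b. The widest named domain, at Mapt, chr10:89147533-89186087, had 38555 bp, was annotated as intronic and was covered to 95.7% by 5 SN peaks. Mapt encodes tau, the microtubule protein of axons. Next in width were Mir9-1, chr2:173660119-173696122, with 36004 bp and 95.9% covered, and Mir9-2, chr2:14170027-14202812, with 32786 bp and 86.8% covered. Kcna5, a voltage-gated potassium channel, had a distal domain of 28750 bp with 92.5% under 6 SN peaks. Slain1, for a microtubule-associated protein, had a promoter domain of 27138 bp with 97.6% covered. The Git1 promoter domain, chr10:62333917-62352910, of 18994 bp, lay to 99.3% under 1 SN peak of 19089 bp. Its protein is an Arf GTPase-activating scaffold. Of the named domains, 47 of 127 met an SN peak of 10 kb or more, and 22 lay between 20 and 80% cover.

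**Figure D5:**
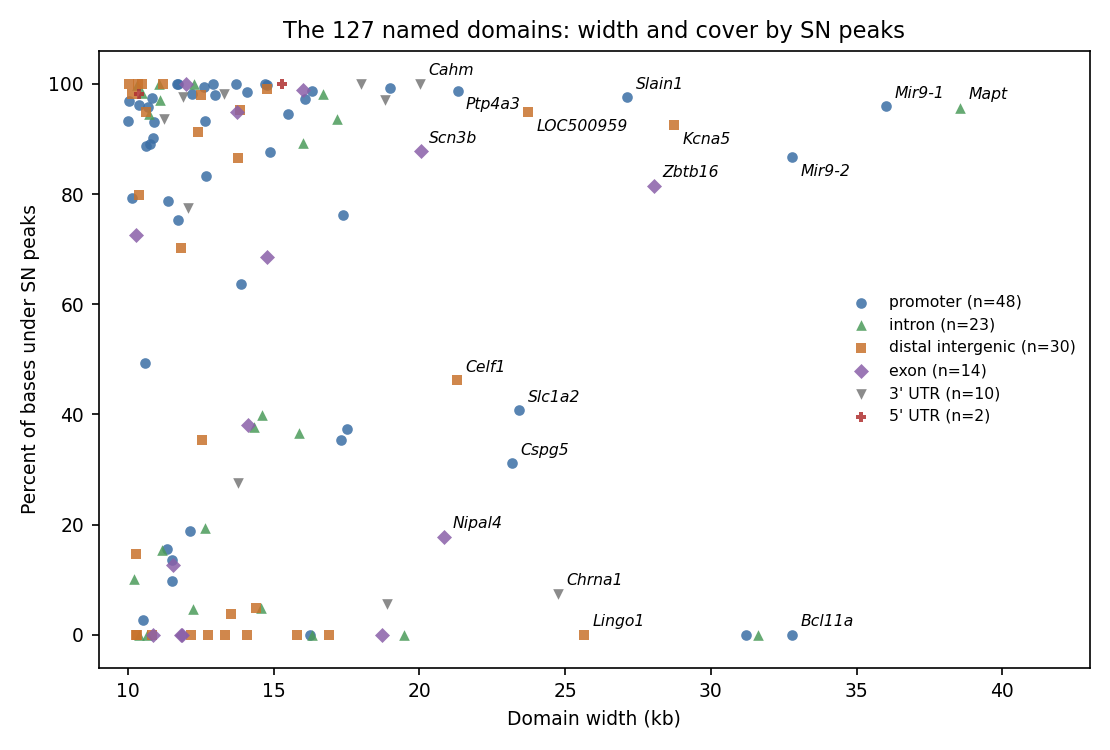
Percent of bases under SN peaks (vertical axis) against width in kb (horizontal axis) for the 127 named domains, with the authors' annotation class as symbol and names given for most domains of 20 kb or more (the widest domain where a gene has several). Mapt and Mir9-1 are the widest and are covered to 95.7% and 95.9%, while Bcl11a, of 32797 bp, is at 0.

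By annotation class, 48 named domains were at promoters, 30 were distal intergenic, 23 intronic, 14 exonic, 10 in a 3′ UTR and 2 in a 5′ UTR. Promoters made up 37.8% of named domains, 21.8% of the 651 named peaks of 5 to 10 kb and 10.8% of the 9011 named peaks below 10 kb. A wider interval reaches more transcription starts, and the part of this in those shares was not tested. Cover by the SN also moved with the class: the median was 99.1% for the 2 domains in a 5′ UTR, 95.3% for the 10 in a 3′ UTR, 91.6% for promoter domains, 58.2% for distal intergenic, 53.3% for exonic and 37.7% for intronic ones. Among promoter domains, 3 of 48 had no SN peak (among them those of Bcl11a and Sox5), beside 10 of 30 distal intergenic and 5 of 23 intronic ones. Cover by class is not given here for the narrower named peaks, so these differences are not read as a trait of the domains.
Of the 48 genes with a promoter domain, 33 had a promoter in the RefSeq table, with 41 sequences. Their 250 bases held a median of 16 CG dinucleotides at 61.6% GC. The promoters of genes with a narrower named promoter peak (685 of 886 genes matched, 728 sequences) had a median of 13 at 59.2% GC, and all 33469 promoters of the table a median of 5 at 51.2% GC. The motifs were searched on both strands and may overlap each other. The GC box GGGCGG was found in 56.1% of the domain promoters, 53.7% of the narrower ones and 30.5% of all promoters. For CCAAT the shares were 34.1%, 31.6% and 34%, and for TATAAA 9.76%, 6.73% and 12.9%. The cAMP response element TGACGTCA occurred in 1 of the 41 domain promoters (2.44%, against 1.59% of all), and the AP-1 motif TGACTCA in 3 (7.32%, against 4.05% of all). A match describes the letters and not binding.

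Gene lists of tissue functions were set beside the median cover of 87.3% over all 750 domains. Each name counts only where a domain had a row, and none of the lists was tested. The lists were drawn up with earlier results of these data known, so how many listed genes had a domain is not a result. Only named domains can enter a list. Among the 127 named ones, the median cover was 86.5%, with 39 under 20% and 66 at 80% or more. For transcription factors, 6 of 10 listed genes had 9 domains with a median cover of 87.6%. Beside Bcl11a these were Klf13 (100% and 98.8% covered), Zbtb7b (99.9%), Epas1, the hypoxia-inducible factor HIF-2 alpha (97%), Pou3f2, a POU factor of upper-layer neurons (87.6%), and Zbtb16 (81.5% and 4.8%). Sox5, Pknox2 and Npas4, with the low cover given above, were not on this list, so its median depends on which genes were listed. The listed neural microRNAs had 4 domains at 3 of 6 genes, with a median of 61.1%. Mir125b1, with a domain covered to 93.3%, was not on this list, so the median of these few domains also depends on which genes were listed. A second Mir9-2 domain, distal intergenic and of 12561 bp, was covered to 35.3%, so that the 2 domains of this gene differed in cover.

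Among the glial genes, 9 of 12 listed had 10 domains, none with less than 20% and 7 with 80% or more of their bases covered (median 95.4%). Glul, the glutamine synthetase of astrocytes, had a promoter domain of 16076 bp at chr13:66022438-66038513, 97.2% covered by 1 SN peak of 15624 bp. Sdc4, a heparan sulfate proteoglycan, was covered to 99.9%, Plpp3, a lipid phosphate phosphatase, to 100%, and Slc6a6, the taurine transporter, to 99.8% and 100% in its 2 domains. The domain of Ptn, the growth factor pleiotrophin, was covered to 93.6% by 6 SN peaks and that of Cst3, cystatin C, to 93.2%. Fam107a (63.7%), Slc1a2 and Cspg5 had less. Aqp4, Gfap and Slc1a3 had no domain with a row.

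Synapse and neuronal signalling genes had the most domains with little cover among these lists: 10 of 12 listed genes had 11 domains, 5 of them under 20% (2 for Lingo1 and those of Ptk2b, Shank2 and Dlgap1) and 4 at 80% or more, with a median of 75.3%. The domains of Dnm2, the endocytic GTPase dynamin 2 (100%), Git1 (99.3%), Kcna5 (92.5%) and Pacsin2, a membrane-bending protein (83.3%), were the covered ones. Ppp1r1b, the dopamine-regulated phosphatase inhibitor DARPP-32, was covered to 78.8% by 4 SN peaks, and Chn1, a Rac GTPase-activating protein, to 75.3%. Arc, Cacna1a and Atp2b2, each under 20% above, were not on this list, so its rank among the lists depends on which genes were listed. Among cytoskeleton genes, 6 of 8 had 1 domain each, with a median of 95.3% and only Add2 under 20%. The others were Kif3b, a kinesin-2 motor (100%), Dpysl2, which organizes axonal microtubules (98.4%), Mapt (95.7%), Bicd2, a dynein adaptor (94.9%), and Ccp110, a centriole protein (90.2%).
Glucocorticoid and stress response genes had 7 domains at 5 of 8 listed genes, 6 of them covered to 80% or more (median 94.8%). These were Pim3, a survival kinase (100%), Ddit4, an inhibitor of mTORC1 (99.4% and 86.5%), Sgk1, the serum- and glucocorticoid-regulated kinase (95.8%), Dusp1, a phosphatase of MAP kinases (94.8%), and one of the Zbtb16 domains. Of 5 growth factor and G protein genes, 3 had a domain: Ptp4a3, a phosphatase (98.8%), Gnai2, an inhibitory G protein subunit (98.1%), and Spry2, an inhibitor of receptor tyrosine kinase signalling (79.4%).

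Other motor cortex peaks lay close to the domains. The nearest one was at a median of 363.5 bp, against 1570 bp for all motor cortex peaks, and 527 domains (70.3%) had a neighbour within 1 kb, against 44% of all peaks. Where the caller ended one peak and began the next therefore bears on what counts as a single domain. The domains were spread over all 20 chromosomes. Their number per 1000 peaks was 9.43 over all, from 5.61 on chromosome 14 to 14.2 on chromosome 18, 13.4 on chromosome 3 and 12.3 on chromosome 10.

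Domains no more than 50 kb apart were joined into 589 clusters, of which 470 were single domains and 119 held 2 or more. The latter took in 280 domains (37.3%), with 91 clusters of 2, 21 of 3 and 7 of 4 to 8. In 50 of the 119 every domain was covered to 80% or more by SN peaks, and in 16 every one to less than 20%. Over all 750 domains, 53.7% had 80% or more and 19.9% less than 20%. Some clusters would therefore be alike without a link between neighbours, and such a link was not tested. In 15 clusters the domains lay on both sides of 50%, and 5 of these held both a domain under 20% and one at 80% or more.
The largest cluster held 8 domains over 180978 bp at chr18:63093541-63274518, with SN cover from 44% to 94.5% and a median of 58.1%. A narrower interval inside it is annotated to Tcf4, a basic helix-loop-helix transcription factor of neurons. Another held 5 domains at chr8:49009571-49179352, 2 of them named for Zbtb16, a zinc finger repressor. The exonic Zbtb16 domain had 28041 bp with 81.5% under 4 SN peaks, and the intronic one 14560 bp with 4.8% under 1 SN peak of 699 bp, so neighbouring domains of one gene differed widely in cover. One of the clusters of 4 domains spanned chr19:11059376-11173058, had cover from 93.8% to 100%, and an interval inside it is annotated to Gnao1, a neuronal G protein subunit.

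The clusters of 2 or more held 37 named domains in 27 clusters. Pairs with the same name were alike in cover for Bcl11a and Lingo1 (0% in both), Rcvrn (0% in both), Klf13, Slain1, Slc6a6 and Ddit4 (each domain over 86%), and unlike for Zbtb16. Dnajb12, for a chaperone, stood in the Ddit4 cluster with 98.2% covered. Chrna1 and Chn1 shared a cluster, with a Chrna1 domain of 24761 bp covered to 7.47% and a Chn1 domain covered to 75.3%. Ptk2b (4.68%) stood beside 2 unnamed domains covered to 80.6% and 93.3%, and Dpysl2 (98.4%) beside 2 covered to 99.8% and 97.1%. The other named domains with a neighbour were Cahm, Cln8, Cox4i2, Atp6v0e1, Psd2, Urm1, Rnf144a, Kcna5, Mir9-1 and the wider Mir9-2 domain, all with over 86% covered, and Adgrb1 (27.5%), Celf2 (37.3%), the narrower Mir9-2 domain (35.3%), Cd6, Msra and Pknox2 (0%).

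The SN tables add names for some domains without a row of their own. In 59 of the 750 domains an overlapping SN interval had a row, 35 of them without a motor cortex row, which brought the domains with a name of either kind to 162. In all 24 domains with both, the motor cortex name was among the SN names. Picked from the 35 after their values were seen, a domain of 20262 bp at chr2:117536862-117557123 was overlapped by an SN interval annotated to Sox2, a factor of neural stem cells and glia, and lay 100% under 1 SN peak. One of 25256 bp at chr7:9535461-9560716 (Midn) was covered to 96.7%, one of 13175 bp at chr10:54129918-54143092 (Kdm6b, a demethylase of lysine 27 on histone H3) to 96.9%, and one of 14513 bp at chr11:76850615-76865127 (Bcl6, a transcriptional repressor) to 91.9%.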

How the data were processed

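H3K27ac ChIP-seq was measured in the motor cortex and SN of 9 rats. Per the submitters' processing notes and methods, the authors used Bowtie2 2.4.4 for alignment (mRatBN7.2), Picard 2.6.0 for duplicates and MACS2 2.2.7.1 for peaks on reads pooled over all rats of a region. The deposited lists give positions only. The authors' fold changes and p-values in the study's tables were not used; intervals were matched there exactly for gene names and annotation classes.

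Positions were read as BED (starts from 0) and are printed counted from 1. Overlap was at least 1 bp, and clusters joined domains up to 50 kb apart, with Python 3.11.15, pandas 2.3.3 and a check by bedtools 2.31.1. Interval functions were tested on 600 simulated intervals, with 0 in error. No significance test was made, since the lists hold no replicates, and they do not give read depth. Named were the 10 widest domains, the 10 widest named ones, those with the 5 largest and 5 smallest SN shares (all ties), and every named one in a gene list or a cluster. Domains and lists were chosen with earlier results of these data known. The count of names through SN intervals and the cover along the domain were added after the data were seen. Some items are not reported here.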

Additional observations from a re-analysis of the deposited data

How the results depend on the processing

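The number of domains depends on the width minimum: 255 at 15 kb, 112 at 20 kb, 1359 at 8 kb, and 1737 where peaks under 1 kb apart were merged first in both lists, with 755 over every chromosome. The share overlapped by an SN peak, 90.3%, was 92.9% at a minimum of 15 kb and fell with the definition of overlap, to 84.9% with SN peaks of 1 kb or more, 68.7% for the central base, 68.4% where 50% of the domain's bases had to be covered and 50.9% for a reciprocal overlap of 50%. The share of bases under SN peaks, 68.1%, was 71.6% at 15 kb, 74.4% at 20 kb and 62.4% after merging. The share meeting an SN peak of the same width class, 41.6%, was 36.6% at 20 kb, 46% after merging and 47.6% when as many of the widest SN peaks as domains were taken. Clusters numbered 548 when joined within 100 kb and 670 when joined at a shorter distance than 50 kb, against 589. Shares were taken to move when they left the 95% Wilson interval of the main share over 750 domains. This was a yardstick and not a sampling error, since the domains come from 1 pooled list and many lie in clusters. For the share of bases it is rougher still, as that is not a share of domains. The lists carry no value per rat, so no rat could be left out and no error between rats is given. No paired analysis was possible because the result comes from no test and the lists are pooled.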
